A study of Mus musculus with 15 samples.

Results

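The genes described here are 10 purinergic genes, the receptors for extracellular nucleotides and adenosine together with a channel that releases ATP and an enzyme that breaks it down, and they were taken by gene symbol from a table of 54390 genes. They are *P2rx4*, *P2rx7*, *P2ry2*, *P2ry6*, *P2ry13*, *P2ry14*, *Adora2a*, *Adora2b*, *Entpd1* and *Panx1*, each listed once. They were measured by bulk RNA-seq in 15 libraries of BV2 cells, a mouse microglial line used here as a macrophage model. The groups were WT non-foamy cells (n = 4) and Trem2-/- non-foamy cells (n = 3), both kept in media alone, and WT foamy cells (n = 4) and Trem2-/- foamy cells (n = 4), both given 20 μg/ml soluble cholesterol overnight. The study made its Trem2-/- cells by transfecting a guide RNA into BV2 cells that carried Cas9 and had themselves been grown from a single clone, and then isolating single clones. The number of clones sequenced is not stated, so the loss of Trem2 and other differences between clones cannot be told apart. The labels do not say whether the libraries of a group came from separate cultures, so the p-values measure the spread between these libraries, which may be technical.

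Cells release ATP and other nucleotides when they are stressed, die or open channels such as pannexin 1. ATP opens the P2X receptors, which are cation channels, and nucleotides and their sugar conjugates activate the P2Y receptors, which signal through G proteins. Membrane ectonucleotidases then degrade ATP stepwise to adenosine, which acts on its own receptors and tends to dampen macrophage activation. In microglia and macrophages P2X7 is best known for driving inflammasome activation, and P2Y receptors for guiding movement towards injured cells and uptake of debris.

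The libraries held 23538963 to 41683825 counted reads, and levels are given as CPM, counts scaled to library size after a TMM correction for library composition. *Trem2* RNA fell in both Trem2-/- groups, from 354 ± 41.2 to 222.2 ± 8.79 CPM without cholesterol (mean ± s.d., n = 4 and 3; adjusted p = 2.85e-07, edgeR quasi-likelihood test) and from 372.9 ± 26.4 to 224.4 ± 4.56 CPM with it (n = 4 each, adjusted p = 7.09e-08), so the transcript was reduced and still present. All 7 general macrophage and microglia markers were over 1 CPM on average, and their summed level was 3120 to 3830 CPM in WT and 4470 to 4780 CPM in Trem2-/- libraries. The part of this shift in the genotype differences was not tested. Among markers of resident microglia in the brain, *Sall1* had no read in any library, *Tmem119* reached 0.728 CPM at most, and *P2ry12* and *Cx3cr1* reached 2.46 and 1.96 CPM. Of 17 markers of astrocytes, neurons, oligodendrocytes, endothelium, fibroblasts and lymphocytes, none exceeded 0.229 CPM in any library. In bulk RNA, fewer cells expressing a gene and less RNA per cell cannot be told apart.

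Purinergic genes sit close together in places. On GRCm38, *P2rx7* (chr5:122643911-122691432) and *P2rx4* (chr5:122707544-122729738) lie 16.1 kb apart on the plus strand, and *P2ry6* (chr7:100937630-100974649) and *P2ry2* (chr7:100996568-101012866) lie 21.9 kb apart on the minus strand. *P2ry14* (chr3:59113855-59153618) and *P2ry13* (chr3:59207892-59210882) lie 54.3 kb apart on the minus strand, with *P2ry12* 5.39 kb further on, all inside *Med12l*, which runs on the plus strand. *Entpd1* lies on chr19:40612366-40741602 (plus), *Panx1* on chr9:15002128-15045478 (minus), *Adora2a* on chr10:75316877-75334784 (plus) and *Adora2b* on chr11:62248984-62266453 (plus). In the GENCODE annotation, exons of *P2rx7* overlapped those of another gene (*Mir8115*) over 1.99% of their length, and no other member shared exonic bases.

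The sequences just upstream of *P2rx7*, *P2rx4* and *Entpd1* are shown because these are the 3 most abundant members and the P2X neighbours differed between the genotypes in opposite directions. They are RefSeq sequences on GRCm38.p6, plus strand, ending at the base before the annotated start, for *P2rx7* at chr5:122643677-122643910, for *P2rx4* at chr5:122707294-122707543, and for the first and an internal start of *Entpd1* at chr19:40612234-40612365 and chr19:40659520-40659769. Capitals mark matches to a motif.
P2rx7: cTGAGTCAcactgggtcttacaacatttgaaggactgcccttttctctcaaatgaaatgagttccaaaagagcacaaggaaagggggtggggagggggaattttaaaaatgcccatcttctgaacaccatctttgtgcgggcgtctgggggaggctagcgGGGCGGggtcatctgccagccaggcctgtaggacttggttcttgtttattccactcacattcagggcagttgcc
P2rx4: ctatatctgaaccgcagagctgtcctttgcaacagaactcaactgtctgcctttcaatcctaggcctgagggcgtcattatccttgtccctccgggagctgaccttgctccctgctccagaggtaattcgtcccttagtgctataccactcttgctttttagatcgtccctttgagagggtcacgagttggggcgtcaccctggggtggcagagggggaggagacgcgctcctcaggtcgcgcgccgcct
Entpd1, first start: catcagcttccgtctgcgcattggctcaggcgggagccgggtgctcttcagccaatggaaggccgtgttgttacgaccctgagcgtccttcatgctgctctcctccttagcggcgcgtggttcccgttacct
Entpd1, internal start: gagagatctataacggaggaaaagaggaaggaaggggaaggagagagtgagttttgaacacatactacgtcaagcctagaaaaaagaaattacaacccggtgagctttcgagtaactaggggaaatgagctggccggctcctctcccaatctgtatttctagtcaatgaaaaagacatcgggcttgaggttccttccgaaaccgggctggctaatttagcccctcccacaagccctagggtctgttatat
The letters searched on both strands were GGAAGT (the core of ETS sites), GAGGAAGT (PU.1 type), TGANTCA (AP-1), CACGTG (E-box), GGGCGG (GC box), TCACNCCAC (sterol element) and the DR4 repeat bound by LXR. GGAAGT also matches inside GAGGAAGT. Of 32851 promoter windows, 6.75% held an AP-1 match, 32.7% a GC box, 19.7% the ETS core, 2.44% the PU.1 type, 6.02% an E-box, 1.05% the sterol element and 0.0152% the DR4 repeat. Those windows were 250 bases long and not cut at exons. The windows shown were cut at annotated exons, to 234 bases for *P2rx7* and 132 bases for the first *Entpd1* start, so the shares apply to longer windows than these. The *P2rx7* window shown held 1 AP-1 match and 1 GC box, a second *P2rx7* window at an internal start (chr5:122650133-122650382, not shown) held no match, and the windows of *P2rx4* and *Entpd1* held no match, which says only that these letters are not in them. Of the 10 members, 8 had an entry, and *P2ry6* and *Adora2a* had none.

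BV2 cells expressed 3 members well. Levels were compared between genes per kilobase of exon. The length covers all annotated exons of a gene and not the transcript expressed, so these comparisons are approximate. On this scale *Entpd1* (9.44 ± 0.572 CPM per kb), *P2rx7* (8.90 ± 0.453) and *P2rx4* (8.89 ± 0.424) had similar levels in WT non-foamy cells (n = 4), closer than their spread. *Adora2b* (1.71 ± 0.232), *P2ry6* (1.68 ± 0.242) and *Panx1* (1.68 ± 0.0526) followed, with *P2ry13* (1.03 ± 0.210) and *P2ry2* (1.01 ± 0.257) below them, and within each of these sets the levels again differed by less than the spread. In Trem2-/- non-foamy cells (n = 3) the 3 leading genes separated, with *Entpd1* at 17.2 ± 0.371, *P2rx4* at 13.9 ± 0.965 and *P2rx7* at 7.29 ± 0.917 CPM per kb. *P2ry13* (0.480 ± 0.179) was then under *P2ry2* (1.55 ± 0.0949). *P2ry14* was near the limit of detection in every group, at 0 to 25 reads per library. *Adora2a*, the adenosine receptor usually linked to dampened macrophage activation, had 0 to 4 reads per library and no read in 11 of 15. A count of 0 allows a level of up to 0.0669 to 0.132 CPM here, by library, for counting error alone. This bound takes each count as an independent read, and it would be higher if a count of 2 stood for 1 read pair. *Adora2a* was thus absent or at trace level at this depth, and the filter on low counts left it out of the tests.

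**Figure D1:**
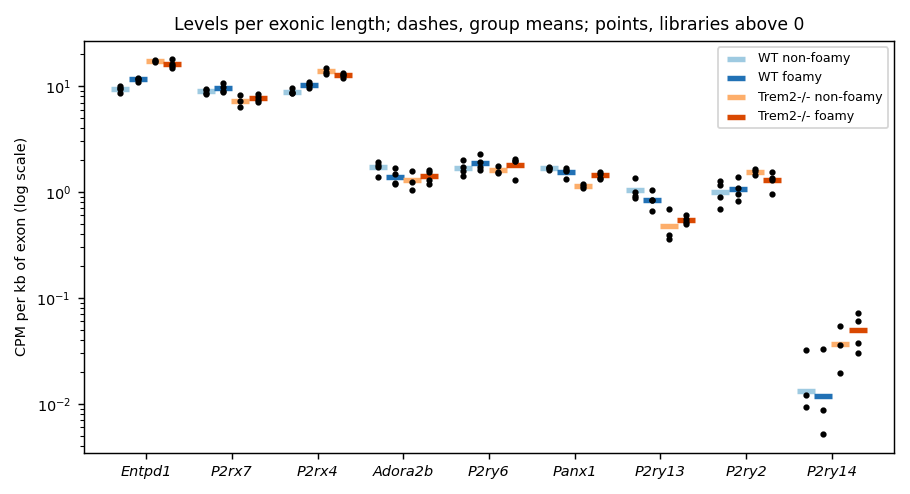
Level of 9 purinergic genes in CPM per kilobase of exon (log axis), by group; dashes are group means and points are libraries above 0. *Entpd1*, *P2rx7* and *P2rx4* lie between 7.29 and 17.2 on average, *P2ry14* lies below 0.05, and *Adora2a* is not drawn.

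Without cholesterol, 6 of the 9 tested members differed between Trem2-/- and WT cells (edgeR, adjusted p under 0.05 over 14237 genes). *Entpd1*, *P2rx4* and *P2ry2* were higher and *P2ry13*, *Panx1* and *P2rx7* were lower in Trem2-/- cells. The members called made up 66.7% of those tested, against 43.6% of all tested genes (21% higher and 22.6% lower). The 3 Trem2-/- libraries lay apart from the 4 WT libraries for the same 6 members and for 46.1% of all genes. The median absolute log2 fold change was 0.61 over the 9 members and 0.32 over all genes. With cholesterol, 5 members differed, against 30.2% of all genes (14.3% higher and 15.9% lower). *P2ry14*, *Entpd1* and *P2rx4* were higher and *P2ry13* and *P2rx7* lower. All of these but *P2ry14* had no overlap between the groups, as did 28.8% of all genes. The median absolute log2 fold change was then 0.29 over the members and 0.22 over all genes. Scaling by total counts alone moved the median of all genes to −0.12 without and −0.13 with cholesterol, from 0.02 and 0, and the share of called genes that were higher from 48.1% to 29.4% and from 47.4% to 23.3%. Under it *P2ry2* without cholesterol (0.46, adjusted p = 0.108) and *P2rx4* with cholesterol (0.17, adjusted p = 0.109) were no longer called, and *Adora2b* without cholesterol was called lower (−0.53, adjusted p = 0.0358).

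**Figure D2:**
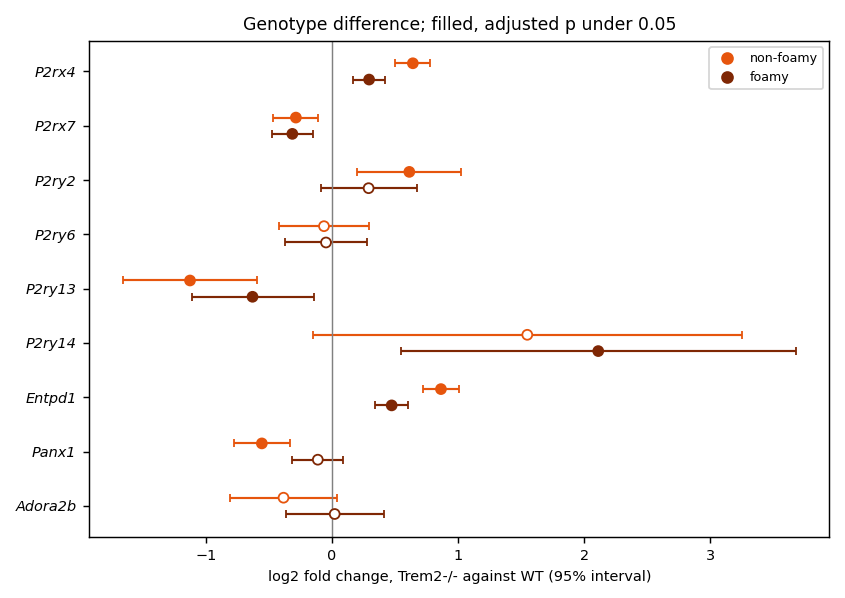
Log2 fold change of Trem2-/- against WT cells for 9 purinergic genes, without cholesterol (non-foamy) and with it (foamy); bars are 95% intervals and filled points have an adjusted p under 0.05. *Entpd1* and *P2rx4* lie above 0 and *P2rx7* and *P2ry13* below 0 in both, and *P2ry14* has the widest intervals.

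*P2rx4* encodes P2X4, an ATP-gated channel found largely in lysosomes of macrophages. It measured 60.5, 66.8, 60.7 and 61.8 CPM in WT non-foamy, 74.2, 76.2, 72.6 and 66.9 CPM in WT foamy, 92.2, 94.9 and 105 CPM in Trem2-/- non-foamy and 89.1, 88.6, 93.8 and 84.0 CPM in Trem2-/- foamy libraries. Every Trem2-/- library was above every WT library, and the WT foamy libraries were above the WT non-foamy ones by a narrow margin. The difference between the genotypes was 1.56-fold without cholesterol (log2 0.64, s.e. 0.067, adjusted p = 5.9e-08, edgeR) and 1.23-fold with it (log2 0.29, s.e. 0.0618, adjusted p = 0.000891).

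*P2rx7* encodes P2X7, the ATP-gated channel upstream of the NLRP3 inflammasome, and it went the other way from its neighbour. It measured 51.3, 54.6, 50.5 and 56.2 CPM in WT non-foamy, 63.3, 58.1, 52.8 and 54.2 CPM in WT foamy, 49.2, 38.3 and 43.2 CPM in Trem2-/- non-foamy and 44.1, 47.5, 50.2 and 41.9 CPM in Trem2-/- foamy libraries. The genotypes did not overlap, with the highest Trem2-/- library just under the lowest WT library. The fold was 0.82 without cholesterol (log2 −0.29, s.e. 0.0856, adjusted p = 0.0092, edgeR) and 0.804 with it (log2 −0.32, s.e. 0.0787, adjusted p = 0.00388). Without Trem2-/- non-foamy replicate 2, which had the lowest level, the difference without cholesterol was −0.20 and not called (adjusted p = 0.0917).

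*P2ry13* encodes a Gi-coupled ADP receptor and was lower in Trem2-/- cells. Its 4 WT non-foamy libraries held 2.33, 2.22, 2.51 and 3.39 CPM and the 3 Trem2-/- non-foamy libraries 0.912, 1.73 and 0.993 CPM, without overlap. In foamy cells the values were 2.13, 1.66, 2.63 and 2.12 CPM in WT and 1.31, 1.399, 1.52 and 1.26 CPM in Trem2-/- libraries, again without overlap. The fold was 0.458 without cholesterol (log2 −1.13, s.e. 0.257, adjusted p = 0.00108, edgeR) and 0.646 with it (log2 −0.63, s.e. 0.233, adjusted p = 0.0437). The call with cholesterol was marginal, since leaving out any library other than WT foamy replicate 2 took it past the threshold (adjusted p from 0.0546 to 0.123). A library here held 30 to 152 *P2ry13* reads.

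*P2ry14*, the receptor for UDP-glucose, went the opposite way from *P2ry13* at very low counts. It had 4, 0, 8 and 6 reads in WT non-foamy, 4, 0, 12 and 2 in WT foamy, 14, 6 and 18 in Trem2-/- non-foamy and 12, 13, 25 and 18 in Trem2-/- foamy libraries. The Trem2-/- libraries tended to hold more reads, and the groups overlapped. The difference was called with cholesterol (log2 2.11, s.e. 0.756, 95% interval 0.55 to 3.68, adjusted p = 0.0323, edgeR) and not without it (log2 1.55, interval −0.15 to 3.25, adjusted p = 0.123). The call with cholesterol was lost without Trem2-/- foamy replicate 3 or 4 or WT foamy replicate 1, 2 or 4 (adjusted p from 0.0661 to 0.0868). Its value ranged from 1.68 without WT foamy replicate 2 to 3.33 without WT foamy replicate 3. A call without cholesterol was gained without WT non-foamy replicate 3 (log2 2.21, adjusted p = 0.0385). *Med12l*, whose introns hold both genes on the other strand, rose in Trem2-/- cells from 5.56 to 13.9 CPM without cholesterol (log2 1.34, s.e. 0.14, adjusted p = 5.6e-08) and from 7.72 to 12.7 CPM with it (log2 0.71, s.e. 0.127, adjusted p = 0.000164). Whether counting used strand is not stated, and the part of *Med12l* reads in the *P2ry14* counts was not tested.

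*P2ry2*, a receptor for ATP and UTP coupled to Gq, was higher in Trem2-/- cells without cholesterol. It measured 3.53, 4.57, 2.73 and 4.95 CPM in WT and 6.44, 5.70 and 6.16 CPM in Trem2-/- non-foamy libraries, which did not overlap (1.53-fold, log2 0.61, s.e. 0.199, adjusted p = 0.0148, edgeR). Without Trem2-/- non-foamy replicate 1 the call was lost (log2 0.57, adjusted p = 0.0557). In foamy cells it measured 5.41, 4.25, 3.24 and 3.72 CPM in WT and 6.12, 5.09, 5.35 and 3.79 CPM in Trem2-/- libraries, which overlapped (log2 0.29, 95% interval −0.09 to 0.67, adjusted p = 0.253). Its neighbour *P2ry6*, the UDP receptor tied to microglial phagocytosis, had group means between 4.65 and 5.43 CPM. The log2 difference between genotypes was −0.06 (95% interval −0.42 to 0.29, adjusted p = 0.794) without cholesterol and −0.05 (−0.37 to 0.27, adjusted p = 0.853) with it. These intervals leave room for a change of about 0.4 downward or 0.3 upward.

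*Entpd1* encodes CD39, the ectonucleotidase that converts ATP and ADP to AMP, and it differed from WT by the smallest p of the set. It measured 48.5, 53.4, 52.4 and 56.3 CPM in WT non-foamy, 61.6, 67.0, 64.7 and 64.9 CPM in WT foamy, 97.7, 96.2 and 93.6 CPM in Trem2-/- non-foamy and 85.7, 83.4, 89.6 and 99.6 CPM in Trem2-/- foamy libraries. The lowest Trem2-/- library was well above the highest WT library. The difference was 1.82-fold without cholesterol (log2 0.86, s.e. 0.0683, adjusted p = 8.8e-10, edgeR) and 1.39-fold with it (log2 0.47, s.e. 0.0629, adjusted p = 5.49e-06).

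*Panx1*, the ATP-releasing channel pannexin 1, was lower in Trem2-/- cells without cholesterol, at 6.81, 6.64 and 7.15 CPM against 10.3, 9.66, 10.4 and 10.1 CPM in WT libraries. The fold was 0.68 (log2 −0.56, s.e. 0.108, adjusted p = 0.000216, edgeR) and the libraries did not overlap. With cholesterol the 4 WT libraries held 10.1, 9.44, 7.95 and 9.76 CPM and the 4 Trem2-/- libraries 8.06, 8.94, 8.23 and 9.32 CPM, which overlapped (log2 −0.11, 95% interval −0.32 to 0.09, adjusted p = 0.419). *Adora2b*, the low-affinity adenosine receptor, had group means of 2.39 to 3.15 CPM. Its log2 difference between genotypes was −0.39 (95% interval −0.81 to 0.04, adjusted p = 0.133) without cholesterol and 0.02 (−0.37 to 0.41, adjusted p = 0.949) with it, and the sign of the latter turned to −0.11 when libraries were scaled by total counts alone.

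**Figure D3:**
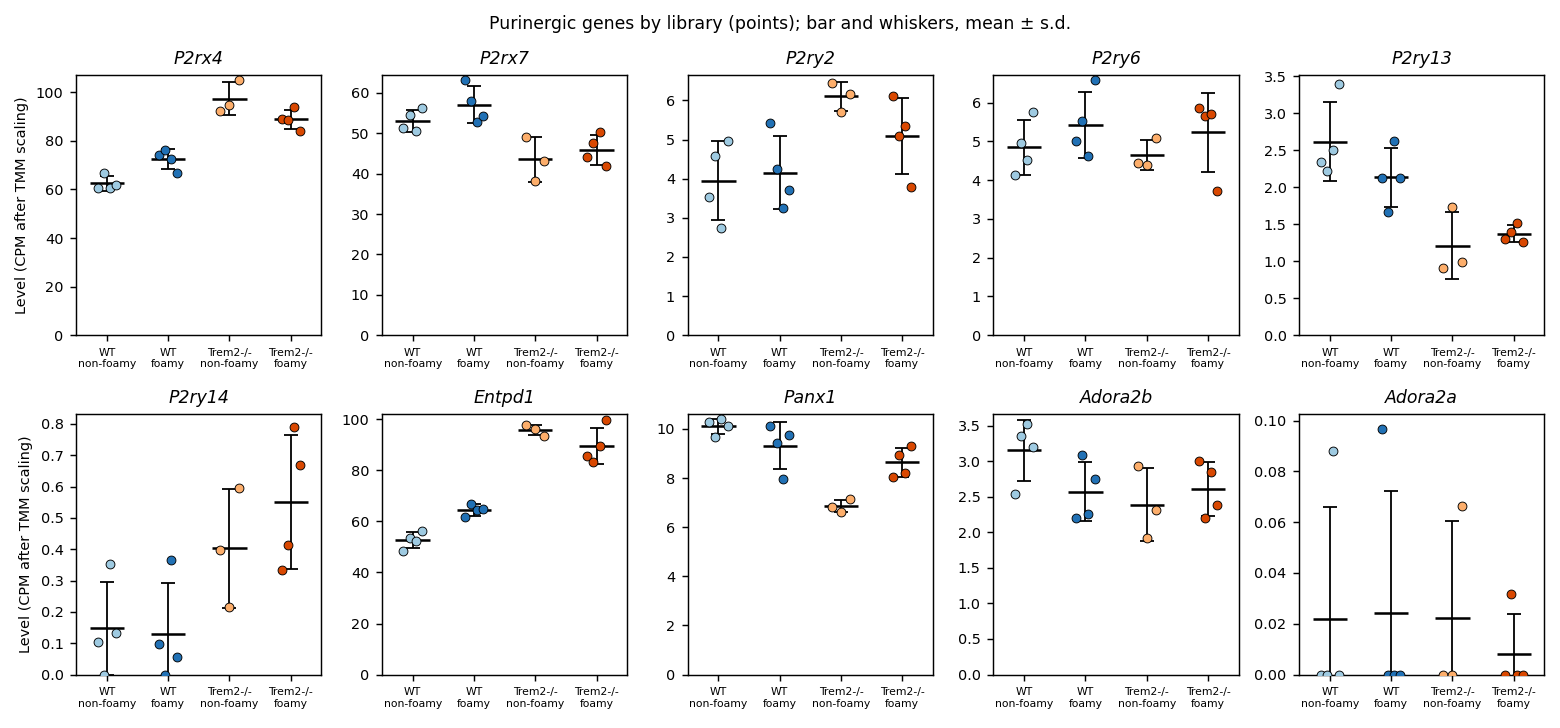
Level of the 10 purinergic genes in each of 15 libraries, in CPM after TMM scaling on axes that start at 0; points are libraries, bars group means and whiskers 1 s.d. *Entpd1* and *P2rx4* are higher and *P2rx7* lower in every Trem2-/- library than in any WT library.

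Cholesterol loading altered few of these genes. In WT cells 1 of the 9 tested members was called, against 2.8% of all genes (1.66% higher and 1.14% lower), and it was *Entpd1*, which rose from 52.7 ± 3.19 to 64.5 ± 2.20 CPM (mean ± s.d., n = 4 each). The increase was 1.23-fold (log2 0.29, s.e. 0.0635, 95% interval 0.16 to 0.42, adjusted p = 0.0128, edgeR), with every foamy library above every non-foamy one. It was no longer called without WT foamy replicate 2 (log2 0.27, adjusted p = 0.0637) or without WT non-foamy replicate 1 (log2 0.26, adjusted p = 0.0657). *P2rx4* came next, at 62.5 ± 2.98 and 72.5 ± 4.004 CPM, also without overlap and short of the threshold (log2 0.22, s.e. 0.0622, adjusted p = 0.0632). It was called by DESeq2 (adjusted p = 0.0209) and without WT foamy replicate 4 (log2 0.25, adjusted p = 0.0347). Foamy and non-foamy libraries lay apart for these 2 members and for 9.71% of all genes. The remaining 7 tested members had log2 differences from −0.30 (*P2ry13*, adjusted p = 0.545) to 0.16 (*P2ry6*, adjusted p = 0.673). Scaling by total counts alone moved the share of called genes that were higher in WT foamy cells from 59.4% to 41.8%, and *Entpd1* was still called.

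In Trem2-/- cells none of the 9 members passed the threshold in edgeR or in DESeq2, against 0.14% of all genes in edgeR, and 1 had an unadjusted p under 0.05, against 6.45% of all genes. That member was *Panx1*, at 6.87 ± 0.260 CPM in non-foamy (n = 3) and 8.64 ± 0.593 CPM in foamy cells (n = 4), with no overlap (log2 0.33, s.e. 0.109, adjusted p = 0.596, edgeR). Libraries of the 2 groups lay apart for 9.26% of all genes. *Entpd1* measured 95.8 ± 2.07 and 89.6 ± 7.17 CPM and *P2rx4* 97.4 ± 6.78 and 88.9 ± 4.01 CPM in non-foamy and foamy Trem2-/- cells. Their log2 differences were −0.10 (95% interval −0.24 to 0.04) and −0.13 (−0.27 to 0.01).

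**Figure D4:**
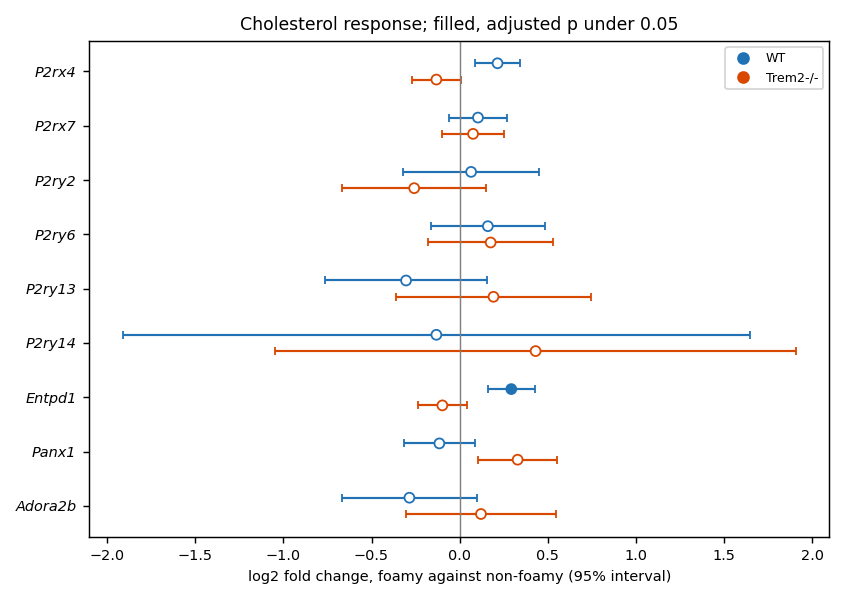
Log2 fold change of foamy against non-foamy cells for 9 purinergic genes in WT and Trem2-/- cells; bars are 95% intervals and the filled point, *Entpd1* in WT cells, has an adjusted p under 0.05. *Entpd1* and *P2rx4* lie above 0 in WT and below 0 in Trem2-/- cells, and *Panx1* the reverse.

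The response to cholesterol itself differed between the genotypes for 2 members, both with a negative difference, against 3.64% of all genes and 1.64% with a negative one. For *Entpd1* the response in Trem2-/- cells minus that in WT cells was −0.39 on the log2 scale (s.e. 0.0928, adjusted p = 0.0214, edgeR), and for *P2rx4* it was −0.35 (s.e. 0.0912, adjusted p = 0.0356). Both genes had the order WT non-foamy, WT foamy, Trem2-/- foamy, Trem2-/- non-foamy from the lowest to the highest mean, in which the difference between the upper 2 groups was not called. For *P2rx4* the difference between the lower 2 groups was not called either (adjusted p = 0.0632, edgeR). *Panx1* had a difference of 0.44 in the other direction and was not called (s.e. 0.146, adjusted p = 0.0937), although DESeq2 called it (adjusted p = 0.0449). The call for *Entpd1* was lost in 5 of 15 fits that left out a library, namely Trem2-/- foamy replicate 1, Trem2-/- non-foamy replicate 1 or 2, WT foamy replicate 2 and WT non-foamy replicate 1 (log2 −0.39 to −0.35, adjusted p from 0.0504 to 0.0699). The call for *P2rx4* was lost in all but 4 of them, those without Trem2-/- foamy replicate 3, WT foamy replicate 4 or WT non-foamy replicate 2 or 3 (log2 −0.38 to −0.29 and adjusted p from 0.0504 to 0.124 in the others). Scaling by total counts alone also lost *P2rx4* (log2 −0.33, adjusted p = 0.112), and moved the share of positive differences among called genes from 54.8% to 70.3%. The 5 comparisons share libraries, so their values are not independent.

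Across the 15 libraries log2 levels of *P2rx4* and *Entpd1* had a Pearson correlation of 0.936, and after each group's mean was subtracted it was −0.166. *P2ry13* and *Entpd1* had −0.843 and 0.066. The points share the group means and the scaling, so the first value in each pair describes the groups and the second the libraries within them. Among the 8 members with a mean of at least 1 CPM, the highest correlation within groups was 0.669, for *P2rx7* and *P2ry2*.

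The wider pathway was followed in 44 other genes, of which 24 were expressed enough to be tested. Without cholesterol 13 of them (54.2%) were called between the genotypes, 2 higher and 11 lower in Trem2-/- cells, against 43.6% of all genes (21% higher and 22.6% lower). With cholesterol 11 (45.8%) were called, 3 higher and 8 lower, against 30.2% of all genes (14.3% higher and 15.9% lower). Scaling by total counts alone gave 16 and 11 calls. Among other receptors 3 of 11 were tested, and the ADP receptors *P2ry12* (log2 −1.51, adjusted p = 0.000302, edgeR) and *P2ry1* (−1.02, adjusted p = 0.00441) were lower without cholesterol, and also with it (−1.12, adjusted p = 0.00254, and −1.18, adjusted p = 0.00114). The exons of *P2ry1* overlap another gene over 23.1% of their length, so its reads are less certain.

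Of 6 tested genes listed as other ectonucleotidases, 4 were called lower without and 3 with cholesterol, where 22.6% and 15.9% of all genes were called lower. The list includes *Entpd5*, *Entpd6* and *Entpd7*, so it is not confined to enzymes at the cell surface. These counts therefore do not measure the breakdown of extracellular nucleotides. *Cd38*, which consumes NAD, had 82, 77, 48 and 96 reads in WT non-foamy, 141, 136, 116 and 107 in WT foamy, 8, 14 and 10 in Trem2-/- non-foamy and 6, 2, 12 and 2 in Trem2-/- foamy libraries. Its log2 fold change was −2.66 (adjusted p = 1.71e-06, edgeR) without and −4.23 (adjusted p = 4.58e-09) with cholesterol, the largest among the members and the wider pathway genes tested. With 2 to 12 reads in a Trem2-/- foamy library the latter value was loose, and it ranged from −4.94 without Trem2-/- foamy replicate 3 to −3.96 without Trem2-/- foamy replicate 2. The other genes called were *Alpl* (−0.49 and −0.41), *Entpd6* (−0.33) and *Entpd5* (−0.18) without cholesterol or in both, and *Entpd7* (−0.38) with cholesterol. *Nt5e*, which encodes CD73 and completes the step from AMP to adenosine, had at most 2 reads in a library.

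In adenosine transport and metabolism, 8 of 10 genes were tested. The lysosomal nucleoside transporter *Slc29a3* was the 1 gene of the wider pathway called with cholesterol in WT cells, where it rose from 37.5 ± 3.32 to 49.0 ± 7.39 CPM (log2 0.38, adjusted p = 0.0183, edgeR). *Cd38* also had a higher mean with cholesterol in WT cells, without overlap, and was not called (log2 0.59, adjusted p = 0.23, edgeR). *Slc29a3* was higher in Trem2-/- cells without (68.7 ± 1.43 CPM, log2 0.87, adjusted p = 9.91e-08) and with cholesterol (60.1 ± 4.53 CPM, log2 0.29, adjusted p = 0.0129). Its responses differed by −0.58 (adjusted p = 0.0144), and it had the same order of group means as *Entpd1* and *P2rx4*. The WT response of *Slc29a3* was no longer called without WT foamy replicate 1 or 2 (adjusted p = 0.0704 and 0.0845), its genotype difference with cholesterol without Trem2-/- foamy replicate 2 or WT foamy replicate 3 or 4 (adjusted p from 0.0516 to 0.0589), and its difference in response without Trem2-/- non-foamy replicate 1 (adjusted p = 0.0503). Scaling by total counts alone lost these 3 calls too (adjusted p = 0.0884, 0.314 and 0.0742). The AMP deaminases *Ampd3* (−0.59 without and −1.17 with cholesterol) and *Ampd2* (−0.48 and −0.30) were lower. *Slc29a2* (−0.40) and *Pnp* (−0.25) were lower without cholesterol, and *Slc29a1* (0.18) was higher with it. No tested gene of ATP release other than *Panx1* was called (0 of 2). Downstream of P2X7, *Nlrp3* was lower (−1.07 and −0.83, adjusted p = 3.14e-07 and 6.51e-06) and *Casp1* higher (0.46 and 0.41, adjusted p = 0.000195 and 0.000599), while *Il1b*, *Il18* and *Gsdmd* were not called. *Pycard*, also on this list, was too low to be tested. It had no read in any WT library and at most 8 reads in a Trem2-/- library. In Trem2-/- cells none of the 24 genes was called with cholesterol by edgeR or DESeq2, and 3 had an unadjusted p under 0.05 in edgeR, where 0.14% of all genes were called and 6.45% had such a p.

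**Figure D5:**
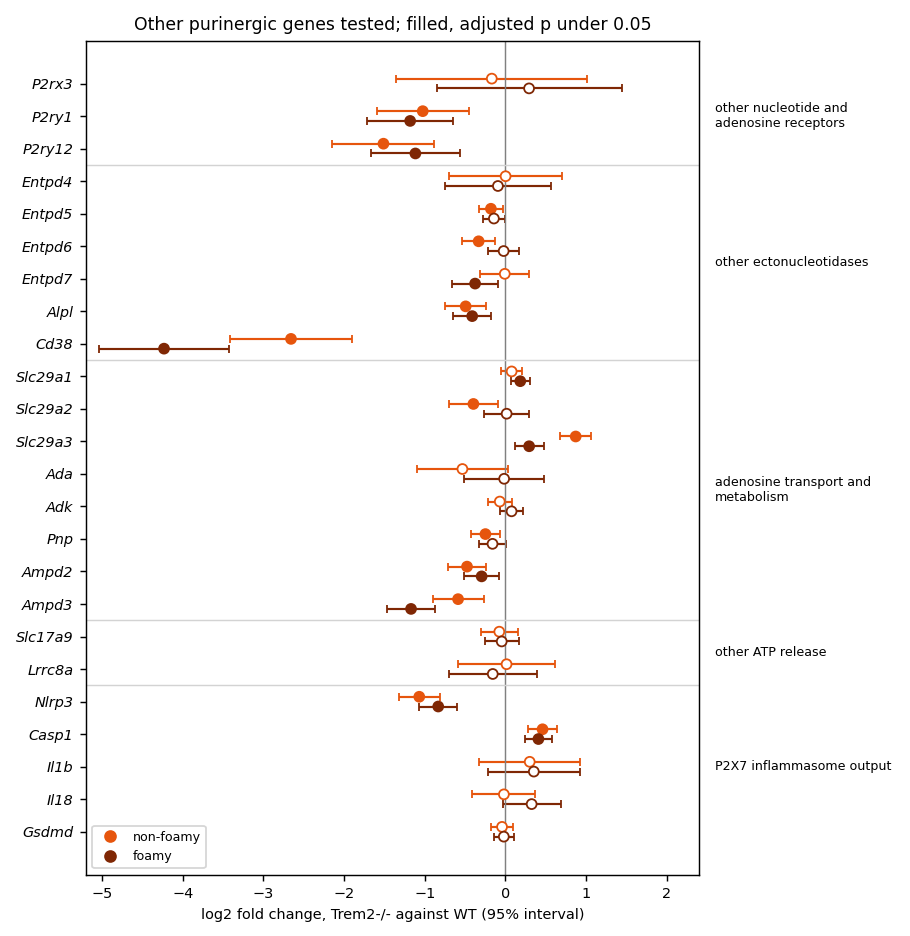
Log2 fold change of Trem2-/- against WT cells for 24 tested genes of the wider purinergic pathway, without cholesterol (non-foamy) and with it (foamy), grouped by role; bars are 95% intervals and filled points have an adjusted p under 0.05. *Cd38* lies furthest from 0, at −2.66 and −4.23, and *Slc29a3* and *Casp1* lie above 0 in both.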

How the data were processed

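The authors deposited raw read counts per gene, without normalization, in 1 table per library. According to the methods, reads were trimmed with Trimmomatic, aligned to GRCm38 with HISAT2 and counted with featureCounts. The strand setting and the treatment of multi-mapping reads are not given in the sources used here. Among deposited counts from 1 to 20, 81.4% were even, against 50.4% of those over 1000, so a count of 2 may stand for 1 read pair.

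All 15 libraries were scaled with TMM factors (0.918 to 1.11) and fitted in edgeR 4.0.16 (R 4.3.3) with a mean for each group, using the quasi-likelihood F-test. Of 54390 genes, filterByExpr (minimum count 10) kept 14237, which held 99.97% of counts. A gene was called at a Benjamini-Hochberg adjusted p under 0.05 over all tested genes. The biological coefficient of variation was 10.2%. Replicates differed by more than counting noise (chi-square per gene 5.95 to 45.2 over 21 pairs). The study used DESeq2, which is an alternative here (DESeq2 1.42.0). Gene positions and exonic lengths came from GENCODE M21, and promoters from RefSeq.

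The members, the pathway lists and the marker lists were chosen with earlier results of these data known. Named were all members, *Trem2*, called genes of the pathway lists, markers, and, for the 3 members with the largest change between genotypes without cholesterol at a mean of at least 1 CPM, the 3 genes closest in pattern. *Med12l*, as the host of members, and *Nt5e*, *Slc17a9*, *Lrrc8a*, *Pycard* and the uncalled inflammasome genes were named after their values were seen. Alternatives were DESeq2, RLE factors, total counts alone, no filter, a minimum of 10 counts in each library, a fit on the compared groups alone, a replicate block, a minimum log2 fold change of 1 in either direction and leaving out each library. Replicates with the same number did not deviate together (correlation −0.077 to 0.143 over 14 pairs), so the numbers were not taken as pairs. A floor of 3 counts was used for genes at 0. Of the listed marker genes, 1 is not reported here.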

Additional observations from a re-analysis of the deposited data

Results flagged for a closer look

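*P2ry6* in Trem2-/- foamy cells had 1 library far from the others: replicate 4 held 3.71 CPM and the other 3 held 5.66 to 5.87 CPM. It was the 1 such case among 27 groups examined, where chance gives about 1 in 20.

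The response to cholesterol differed between Trem2-/- and WT cells, by the test of the difference itself in edgeR, for *Entpd1* (log2 −0.39), *P2rx4* (−0.35) and the nucleoside transporter *Slc29a3* (−0.58). Each had a higher mean with cholesterol in WT cells and a lower mean with cholesterol in Trem2-/- cells, where none was called. In WT cells *P2rx4* was not called either (adjusted p = 0.0632, edgeR).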

How the results depend on the processing

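Of 790 results of single members under alternatives, 706 kept their direction and their side of the threshold, 50 lost a call, 6 gained one and 28 changed sign, all 28 without a call. The cause was not tested for any of these. *P2ry14* had 0 to 25 reads in a library.

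The number of members called in WT cells with cholesterol was 1, and was 2 with DESeq2 or at least 10 counts in every library, 0 with a minimum log2 fold change of 1 in either direction, and 0 to 2 when a library was left out. Members called between genotypes were 6 without and 5 with cholesterol, and 1 in each at a log2 fold change of at least 1. Leaving out a library gave 5 to 7 and 3 to 4. Members with different responses were 2, and were 1 with total counts alone, 1 with the replicate block, 0 at a log2 fold change of at least 1 and 0 to 2 without a library. For the wider pathway list, the call in WT cells (1) became 0 with total counts alone, with only the libraries compared and at a log2 fold change of at least 1, and 0 to 1 without a library. Its 13 and 11 calls between genotypes became 4 and 4 at a log2 fold change of at least 1, and 10 to 12 and 9 to 11 without a library. Its 1 different response became 2 with DESeq2, 0 with total counts alone, 0 at a log2 fold change of at least 1 and 0 to 2 without a library.

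The replicate block, whose numbers did not pair the libraries, moved calls over all genes to 312, 15, 5904, 4151 and 294, from 399, 20, 6207, 4297 and 518. With it, *P2rx4* lost its different response (−0.32, adjusted p = 0.0677), *P2ry13* its call with cholesterol (−0.63, adjusted p = 0.0611), and *P2ry6* changed sign in the difference of responses (−0.001). Without a filter on low counts *P2ry13* was at −0.64 (adjusted p = 0.056). *Adora2b* between genotypes with cholesterol was −0.11 with total counts alone. Halving the counts was added after seeing the data, and it left *P2ry14* untested, as did at least 10 counts in every library.

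Signs turned when a library was left out for *P2ry2* (−0.09 to 0.20) and *P2ry14* (−1.36 to 0.53) in the WT response, for *P2rx7* (−0.009 to 0.17) and *Adora2b* (−0.012 to 0.30) in the Trem2-/- response, for *P2ry6* between genotypes without (−0.14 to 0.036) and with cholesterol (−0.12 to 0.08), for *Adora2b* with cholesterol (−0.057 to 0.12), and in the difference of responses for *P2rx7* (−0.11 to 0.07), *P2ry6* (−0.084 to 0.14) and *P2ry14* (−0.10 to 1.78).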

Other observations

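Over the 15 libraries, 11708 tested genes averaged 1 CPM or more, and those closest in pattern to *Entpd1* were *Slc40a1*, which encodes the iron exporter ferroportin (Pearson r = 0.991), *Btg1* (0.990) and *Zfand5* (0.987). Those closest to *P2rx4* were *Mxd1* (0.981), *Mapk3*, which encodes the kinase ERK1 (0.981), and *Psap*, which encodes the lysosomal protein prosaposin (0.979). Those closest to *P2ry13* were *Bora* (0.923), *Lin54* (0.920) and *Gm25432* (0.918). These are descriptions over libraries that share the group means.

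After the group means were subtracted, other genes came first. They were *Cald1* (0.906), *Ttc3* (0.869) and *Pafah1b2* (0.869) for *Entpd1*, *Rgl1* (0.931), *Ppp1r3b* (0.903) and *Trim45* (0.880) for *P2rx4*, and *Slc25a15* (0.840), *Tatdn3* (0.823) and *Trp53rkb* (0.782) for *P2ry13*. These values are the highest among 11708 genes over only 15 libraries, so some high values arise by chance. Whether any exceeded that was not tested.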
